A study of Mus musculus with 4 samples.

Results

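The genes described here encode 3 groups of splicing factors: the Srsf genes, the Hnrnp genes and the Sf3a and Sf3b genes. They were chosen by symbol from the deposited FPKM table, as the rows named Srsf, Sf3a or Sf3b followed by a number or beginning with Hnrnp, pseudogenes left out. This gave 40 of 24028 genes, of which 11 are Srsf, 20 are Hnrnp and 9 are Sf3 genes. The libraries were made from macrophages that had been sorted out of the sciatic nerve of female mice at day 3 after nerve injury. All mice carried 1 copy each of the knock-in reporters Cx3cr1-GFP and Ccr2-RFP, which replace the coding sequence of the chemokine receptor, so that animals of both ages had 1 intact allele of either receptor, and the labels call the sorted cells CCR2+ Cx3cr1+. The young mice were 3 months old and the aged mice 15 months old, and each age had 2 libraries from pooled animals, with 7 to 8 mice per time point given by the submitters. Whether the young and aged pools differ beyond the spread of such pools is the comparison that the design allows.

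Splicing removes introns from a transcript in the nucleus. SR proteins, the products of the Srsf genes, bind exons through RNA recognition motifs, and their tail rich in arginine and serine recruits the first components of the spliceosome. The hnRNP proteins coat nascent RNA and often hold exons back from inclusion, so that the balance of both groups sets many alternative exons. SF3A and SF3B are protein complexes of the U2 snRNP, which binds the branch site of the intron. In macrophages such proteins also act on messages of the innate response: in mouse macrophages Hnrnpm restrains the splicing of Il6, and Hnrnpa2b1 has been described as a nuclear sensor of viral DNA. Many Srsf and Hnrnp genes control their own level through exons that carry an early stop codon and send the message to nonsense-mediated decay.

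The 4 libraries had read totals of 8613360 to 11489336, and all 10 macrophage markers were present in each, with a summed level of 10169 to 15250.2 FPKM. Markers of other cells had far lower sums. Lyz2 alone made 7491 to 12267 FPKM of the macrophage sum, and the lowest of the 10, Cx3cr1, was 16.1 to 19.8 FPKM. Some single markers of other cells were above Cx3cr1, such as Csf3r of neutrophils at 24.3 to 29.7 FPKM. The 5 fibroblast markers summed to 32.0 to 152.6 FPKM, with the highest sum in young replicate 2, the 5 Schwann cell markers to 22.3 to 46.0 FPKM, the 5 endothelial markers to 9.07 to 24.1 FPKM and the 4 neutrophil markers in the table to 33.9 to 37.8 FPKM. The 5 B cell markers summed to 7.23 to 30.4 FPKM, and the 5 T and NK cell markers reached 106.6 FPKM in aged replicate 2, where Cd3g alone was 97.8 FPKM, against at most 14.8 FPKM elsewhere. Of all these markers none was at 0 in every library. Xist was present in all 4 libraries, and the Y-linked genes Kdm5d, Uty, Ddx3y and Eif2s3y were at 0.0689 FPKM or less.

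All levels below are FPKM, read counts divided by gene length and by the read total of the library, so that genes can be compared with one another. Of the 40 genes, 39 had a mean of at least 1 FPKM over the 4 libraries and were tested, and 34 of these had a mean of at least 10 FPKM. The median of the 39 means was 30.2 FPKM. The 39 genes had 25 to 15964 reads in a library, and 35 of them had at least 100 reads in every library. The tested genes with fewer in some library were Hnrnph3, Sf3a2, Sf3b4 and Sf3b5, with 72, 65, 43 and 25 reads at the lowest. The gene not tested was Srsf12, an SR gene known from testis and brain, with 3 to 16 reads. Its level was 0.118, 0.506, 0.119 and 0.170 FPKM in young replicates 1 and 2 and aged replicates 1 and 2. In every library the 40 genes together took 0.367% to 0.465% of the summed FPKM of all genes. All 4 values of a gene follow this order of libraries, and means are given ± SD (n = 2 libraries). A difference is the aged mean less the young mean of log2(FPKM + 1), a scale that shrinks differences of low genes.

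**Figure D1:**
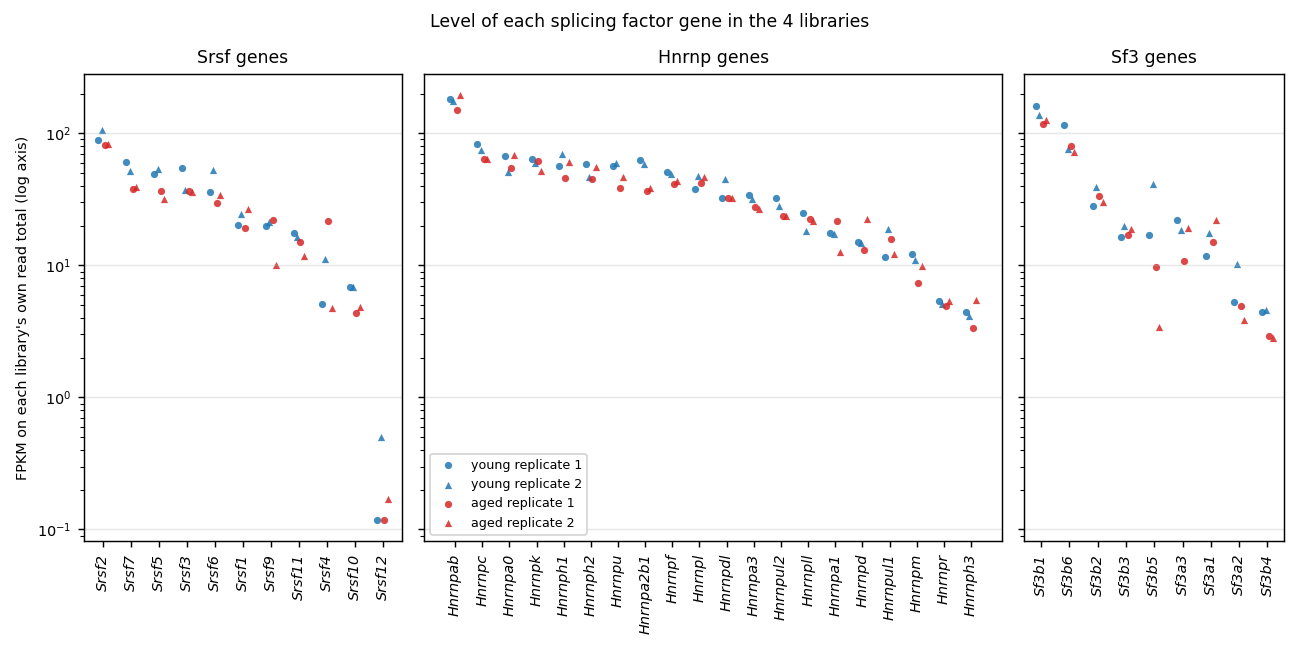
Level of each of the 40 splicing factor genes in the 4 libraries, in FPKM on a log axis, by family and in order of mean level. Circles and triangles are replicates 1 and 2, blue is young and red is aged; Srsf2, Hnrnpab and Sf3b1 lead their families, and Srsf12 is the only gene with a mean below 1 FPKM.

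Aged macrophages had lower mean levels of most of these genes, by a small amount, and no single gene passed the test over all genes. The mean log2 value was lower in aged cells in 31 of the 39 tested genes and higher in 8, where 59.5% of all 11656 genes tested were lower. In 18 of the 39 the aged libraries both lay under the lower young one, against 26.2% of all genes tested, and in 0 they lay over the higher young one, against 11.8% of all genes. The median difference was -0.25 (quartiles -0.44 and -0.04), beside a median of -0.09 over all genes tested. limma called 0 of the 39 at an adjusted p below 0.05, as it called 0% of all genes in either direction, and the adjusted p of the 39 lay between 0.740 and 0.995. With p not adjusted, 4 were lower at the same threshold, Sf3b5, Hnrnpa2b1, Srsf5 and Srsf7, and 0 higher, where all genes gave 4.87% lower and 1.76% higher. Among the 7071 genes with a mean of at least 5 FPKM, the shares were similar: 27.9% lay lower and 12.7% higher without overlap, 59.8% had a lower mean, and 5.81% were lower and 2.18% higher at an unadjusted p below 0.05.

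The count of 18 depended on how the libraries were scaled to each other. The median-ratio factors, by which the values of a library are divided, were 0.919 and 1.178 for young replicates 1 and 2. For aged replicates 1 and 2 they were 1.003 and 0.921. Tightness within the young pair of a gene therefore also depends on the scale. With the median ratio of all genes as the scale it was 9 of 39 (23.1%) beside 18.3% of all genes, and the median of the 39 genes was -0.14 beside 0.01 for all genes. The distance between the members' median and that of all genes moved less, from -0.16 to -0.14 with the median ratio and -0.19 with quantile scaling. It was -0.05 without young replicate 1. The 9 genes that lay lower in both aged libraries under the read total, the median ratio and quantile scaling were Hnrnpa2b1, Hnrnpu, Sf3a2, Sf3b4, Sf3b5, Srsf5, Srsf6, Srsf7 and Srsf10. In 24 of the 39 the mean was lower in aged cells under all 3. Of all genes tested, 59.5%, 49.2% and 53.6% had a lower mean on these 3 scales in turn. Both aged libraries lay lower in 26.2%, 18.3% and 23.2% of them. The share of all genes that did so under all 3 was not counted.

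**Figure D2:**
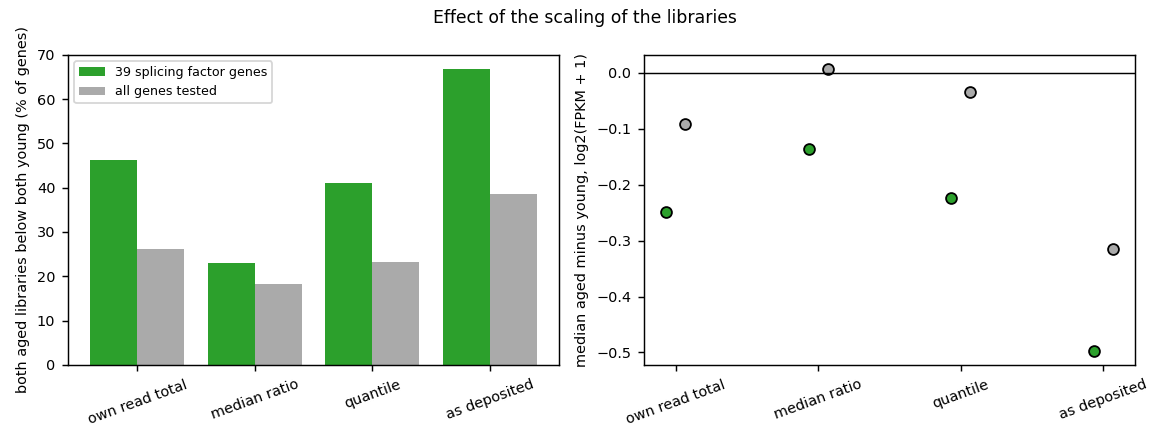
Left, the share of genes whose aged libraries both lay under the lower young one, in percent, for the 39 splicing factor genes (green) and all genes tested (grey); right, the median difference of aged less young in log2(FPKM + 1). With the median ratio the share is 23.1% against 18.3%, and with each library's own read total it is 46.2% against 26.2%.

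Cycling markers and 1 nuclear RNA also had lower levels in aged cells. All 6 cycling markers had a lower mean in aged cells, 5 of them without overlap (4 with the median ratio), where 59.5% of all genes had a lower mean and 26.2% lay lower without overlap. None of the 6 passed the adjusted test, with a lowest adjusted p of 0.740 in limma, and their summed level was 97.0 to 101 FPKM in young and 70.4 to 71.2 FPKM in aged libraries. Mki67, a marker of dividing cells, was 12.3, 9.25, 4.64 and 6.19 FPKM. Malat1, a long RNA retained in the nuclear speckles where SR proteins are stored, was 184, 121, 55.9 and 51.4 FPKM, while Neat1, the long RNA of the paraspeckles, was 82.8, 76.9, 75.8 and 83.5 FPKM. The part of these in the levels of the splicing factors was not tested. In bulk libraries such as these, fewer cells of a type and less RNA per cell cannot be told apart.

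Among the Srsf genes, 8 of 10 tested had a lower mean in aged cells, and 7 lay lower in both aged libraries than in both young ones, where 26.2% of all genes did. These counts were 8 and 4 of 10 with the median ratio. The median difference was -0.39 (quartiles -0.48 and -0.26), and less the median of all genes it was -0.30, with -0.39 without young replicate 2 and -0.20 without aged replicate 2. Their summed level was 360, 384, 304 and 284 FPKM, so that the aged mean was 0.790 of the young mean. An exact two-sided permutation test over the 4 libraries gave p = 0.333, the smallest p that this design allows. With the median ratio as the scale, the aged sum was 0.852 of the young sum.

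Srsf2, also known as SC35 and mutated in human myelodysplastic syndromes, was the most abundant SR gene at 89.6, 106, 81.5 and 83.7 FPKM. The aged values lay below both young ones, but the step from the lower young to the higher aged library was smaller than that within the young pair, and the difference was -0.24 (SE 0.20; limma, adjusted p 0.801). Of its exon bases 15.6% are also exons of Mettl23 on the other strand, and the sources used here do not say whether reads were counted by strand.

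Srsf7, an SR protein with a zinc knuckle that also takes part in the export of messages, was 60.3, 52.0, 37.6 and 39.3 FPKM, a mean of 56.1 ± 5.89 in young and 38.5 ± 1.19 in aged cells. On the scale of the read totals both aged libraries lay well below both young ones. The difference was -0.53 (SE 0.21), with an unadjusted p of 0.0417 in limma, adjusted p 0.740. With the median ratio both aged libraries still lay lower, by a difference of -0.42, but aged replicate 2 came close to young replicate 2. Srsf3, a close relative, was 54.7, 37.5, 36.4 and 36.1 FPKM. Here young replicate 1 was high and young replicate 2 lay close to the aged pair, and the difference was -0.31 (SE 0.25).

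Srsf5, an SR protein with a pair of RNA recognition motifs, was 49.1, 53.7, 36.6 and 31.7 FPKM, with means of 51.4 ± 3.26 and 34.2 ± 3.48. The gap between the ages was wider than that within either pair, with a difference of -0.58 (SE 0.21), an unadjusted p of 0.0325 in limma and an adjusted p of 0.740. Its relative Srsf6 was 36.1, 53.3, 29.6 and 34.4 FPKM, lower in both aged libraries, though young replicate 1 and aged replicate 2 were close. Srsf10, which acts as a splicing repressor when it has lost its phosphates, was low in level, at 6.86, 6.88, 4.39 and 4.86 FPKM. It was even within each age on the scale of the read totals, with a difference of -0.49 (SE 0.27; limma, adjusted p 0.761). With the median ratio its young pair was less even, and the difference was -0.39.

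The other SR genes did not share that pattern throughout. Srsf11 was lower in both aged libraries, at 14.9 and 11.7 against 17.6 and 16.6 FPKM. Srsf1, the founding SR protein, was 20.4, 24.7, 19.1 and 26.9 FPKM, with overlapping ages and a difference of 0.02 (SE 0.26). Srsf9, a close relative of it, was 19.8, 21.5 and 22.1 FPKM in 3 libraries and 9.997 FPKM in aged replicate 2. Srsf4 was 5.12, 11.2, 21.7 and 4.78 FPKM, so that the aged pair spanned the young one, with 627 reads in aged replicate 1 and 160 in aged replicate 2. Reads of Srsf4 are uncertain, since 43.0% of its exon bases overlap exons of Gm12992 on the other strand. Srsf4, Srsf9 and Sf3b5 were the 3 genes with a gap of more than 1 on the log2 scale within an age.

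**Figure D3:**
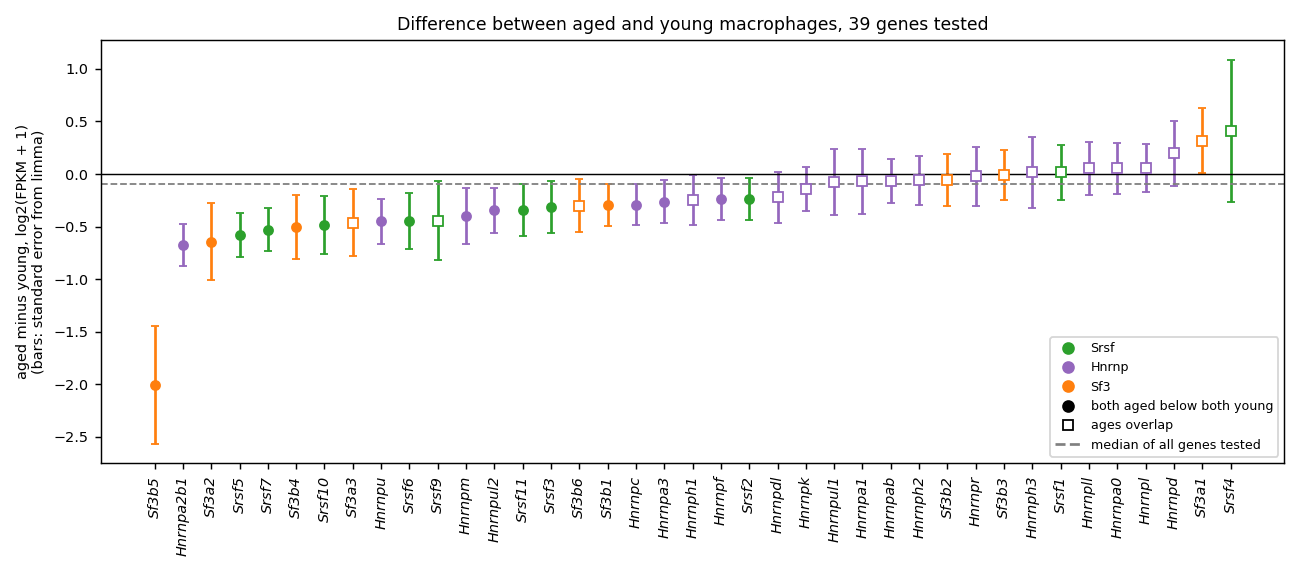
Difference of aged less young in log2(FPKM + 1) for the 39 genes tested, with standard errors from limma, coloured by family. Filled circles are the 18 genes whose aged libraries both lay under the lower young one (9 with the median ratio as the scale), open squares the genes whose ages overlap, and the dashed line is the median of all genes tested, -0.09.

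The promoters of Srsf5, Srsf7 and Hnrnpa2b1 are shown because these genes had the lowest p among the members with a RefSeq promoter entry, and that of Srsf1 because its levels overlapped between the ages. Each runs from 250 bases before to 50 bases after the annotated start (RefSeq, GRCm38.p6, first entry of a gene, 5′ to 3′ on the gene's strand). Capitals mark, on both strands, the letters of the TATA box (TATAAA), the GC box (GGGCGG), the CCAAT box (CCAAT), an ETS core (CCGGAAG), a YY1 core (AAGATGGC) and the cyclic AMP response element (TGACGTCA).
Srsf5, chr12:80945249-80945548, plus strand: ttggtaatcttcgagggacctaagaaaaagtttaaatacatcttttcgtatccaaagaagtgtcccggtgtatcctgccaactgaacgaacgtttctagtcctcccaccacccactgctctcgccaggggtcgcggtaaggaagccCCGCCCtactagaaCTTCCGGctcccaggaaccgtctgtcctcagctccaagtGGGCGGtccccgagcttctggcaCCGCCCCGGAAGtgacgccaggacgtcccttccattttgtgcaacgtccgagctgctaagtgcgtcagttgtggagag
Srsf7, chr17:80207256-80207555, minus strand: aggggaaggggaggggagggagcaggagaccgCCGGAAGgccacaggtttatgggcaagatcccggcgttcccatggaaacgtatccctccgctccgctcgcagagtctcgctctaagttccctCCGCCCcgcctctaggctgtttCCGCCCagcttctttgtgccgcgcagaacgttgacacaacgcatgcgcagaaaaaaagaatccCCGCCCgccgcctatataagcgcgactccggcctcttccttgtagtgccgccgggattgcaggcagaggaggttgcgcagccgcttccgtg
Hnrnpa2b1, chr6:51469845-51470144, minus strand: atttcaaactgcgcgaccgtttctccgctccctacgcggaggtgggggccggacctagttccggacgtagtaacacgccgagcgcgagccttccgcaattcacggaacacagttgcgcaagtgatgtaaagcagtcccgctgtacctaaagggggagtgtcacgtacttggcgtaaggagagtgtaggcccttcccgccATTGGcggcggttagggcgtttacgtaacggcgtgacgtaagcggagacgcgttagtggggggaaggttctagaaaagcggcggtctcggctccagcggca
Srsf1, chr11:88047123-88047422, plus strand: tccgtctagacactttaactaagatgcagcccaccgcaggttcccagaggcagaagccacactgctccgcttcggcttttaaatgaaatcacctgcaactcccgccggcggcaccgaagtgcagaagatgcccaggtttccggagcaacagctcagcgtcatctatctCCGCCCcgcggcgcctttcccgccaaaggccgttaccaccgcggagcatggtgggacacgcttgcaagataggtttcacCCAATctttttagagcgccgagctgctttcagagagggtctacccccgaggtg
The Srsf5 window held 3 GC boxes and 2 ETS cores, one of which overlaps a GC box by a shared base, and that of Srsf7 held 3 GC boxes and 1 ETS core. The Hnrnpa2b1 window held 1 CCAAT box on the opposite strand, and that of Srsf1 held 1 GC box and 1 CCAAT box. None of the 4 held the exact letters TATAAA, AAGATGGC or TGACGTCA. Variants of these elements were not searched for, so their absence is not shown.

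Promoter entries matched 36 of the 40 genes, all but Hnrnpll, Hnrnpul2, Sf3b4 and Sf3b5. The GC box occurred in 27 of the 36 (75%), against 35.9% of 27025 promoters with 1 entry per gene. The ETS core occurred in 12 of 36 (33.3%) against 9.12%, and the CCAAT box in 18 of 36 (50%) against 37.9%. TATAAA occurred in 5 of 36 (13.9%) against 14.2%, the YY1 core in 2 of 36 (5.56%) against 2.88%, and the cyclic AMP response element in 0 of 36 against 1.88%. These are matches of letters only.

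The Hnrnp genes had a median near that of all genes with the 4 libraries together. In aged cells 15 of the 20 had a lower mean and 5 a higher one, and 7 (35%) lay lower in both aged libraries, where 26.2% of all genes did. On the median-ratio scale 10 had a lower and 10 a higher mean, 2 lay lower and 1 higher. The median difference was -0.11 (quartiles -0.27 and -0.01) beside -0.09 for all genes. On the scale of the read totals their summed level was 910.2, 889.9, 754 and 843 FPKM, lower in both aged libraries. The aged mean was 0.887 of the young mean (exact two-sided permutation p = 0.333, the smallest possible, on this scale only). With the median ratio as the scale it was 0.955, and the sums overlapped between the ages, with aged replicate 2 above young replicate 2. The ratio of the Srsf sum to the Hnrnp sum was 0.395, 0.432, 0.403 and 0.336, with overlapping ages (exact two-sided permutation p = 0.667).

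Hnrnpa2b1, which binds RNA in the nucleus and in transport granules, had the lowest p of the Hnrnp genes. It was 62.7, 58.3, 36.5 and 38.4 FPKM, a mean of 60.5 ± 3.07 in young and 37.4 ± 1.30 in aged cells. On the scale of the read totals each pair was tight and the pairs lay far apart, with a young level 1.62-fold higher. The difference was -0.68 (SE 0.20), with an unadjusted p of 0.0141 in limma and an adjusted p of 0.740. With the median ratio both aged libraries still lay lower, by a difference of -0.57. The gap within the young pair was then wider than the step from the lower young to the higher aged library. The gene lies on the minus strand of chromosome 6, 51460932 to 51469894 (GENCODE M21, GRCm38), and 0.591% of the 50-base stretches of its transcripts also occur in another gene. Its paralog Hnrnpa1 was 17.5, 17.3, 21.8 and 12.5 FPKM, so that the aged pair spanned the young one. Hnrnpa1 shares 28.2% of its stretches with other genes, mostly Gm10052, and its values are uncertain.

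Hnrnpu, which binds chromatin and the Xist RNA, was 56.9, 60.1, 38.7 and 46.8 FPKM. Both aged libraries were lower, with a difference of -0.45 (SE 0.21) and an unadjusted p of 0.0764 in limma. The most abundant member of all 3 families was Hnrnpab, at 182, 178, 152 and 195 FPKM, with overlapping ages and a difference of -0.07 (SE 0.21). Of its exon bases 29.1% are also exons of Phykpl on the other strand, so its level is uncertain in part. Hnrnpc, which packages nascent RNA and binds runs of uridine, was 82.8, 74.8, 64.4 and 64.0 FPKM. It lay lower in both aged libraries by a difference of -0.29 (SE 0.19; limma, adjusted p 0.772).

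In 4 Hnrnp genes whose products bind AU-rich or cytosine-rich messages, or are close relatives, the ages overlapped. Hnrnpa0, which binds AU-rich elements of inflammatory messages in macrophages, was 67.2, 51.5, 54.5 and 68.6 FPKM, a difference of 0.05 (SE 0.24). Hnrnpk, which binds cytosine-rich RNA, was 64.6, 59.6, 61.4 and 51.5 FPKM, a difference of -0.14 (SE 0.21). Hnrnpd, also called AUF1, which promotes the decay of AU-rich messages, was 15.0, 14.8, 13.0 and 22.7 FPKM, and the wide aged pair enclosed the young one. Its relative Hnrnpdl was 32.2, 44.9, 32.4 and 32.5 FPKM, with only young replicate 2 apart.

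Hnrnpl, which binds CA repeats, was 37.7, 48.0, 42.0 and 46.6 FPKM, and its relative Hnrnpll, known from the skipping of exons of Ptprc (CD45) in lymphocytes, was 25.2, 18.1, 22.7 and 21.8 FPKM. Both overlapped between the ages. Among the genes that bind runs of guanine, Hnrnph1 and Hnrnph2 had means of 58.0 and 51.6 FPKM and overlapping ages, and Hnrnph3 had a mean of 4.36 FPKM. Hnrnpf lay lower in both aged libraries, at 51.2, 49.0, 41.2 and 43.3 FPKM, but 61.9% of its stretches occur in other genes.

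Of the remaining Hnrnp genes, Hnrnpm, the gene that restrains Il6 splicing, was 12.2, 11.04, 7.40 and 9.83 FPKM, a difference of -0.40 (SE 0.27; limma, adjusted p 0.769). Both aged libraries lay below both young ones in Hnrnpm, in Hnrnpul2 (32.4, 28.3, 23.8 and 23.6 FPKM) and in Hnrnpa3 (33.9, 32.1, 27.8 and 26.9 FPKM), of which Hnrnpa3 shares 27.1% of its stretches with other genes. With the median ratio the ages overlapped in each of these genes, and with quantile scaling in Hnrnpm only. Of the exon bases of Hnrnpm 14.7% are also exons of March2 on the same strand, so its values are uncertain in part. Hnrnpr and Hnrnpul1, with means of 5.19 and 14.6 FPKM, overlapped, with differences of -0.02 and -0.08.

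The Sf3 genes encode proteins that sit together in the U2 snRNP, yet their transcripts covered a wide range, from a mean of 136 FPKM for Sf3b1 to 3.70 FPKM for Sf3b4. Of 9 tested, 8 had a lower mean in aged cells, and 4 (44.4%) lay lower in both aged libraries, where 26.2% of all genes did. On the median-ratio scale 6 had a lower mean, 3 lay lower and 1 higher. The median difference was -0.30 (quartiles -0.50 and -0.06), and less the median of all genes it was -0.21, with -0.41 without young replicate 2 and -0.11 without aged replicate 1. On the scale of the read totals their summed level was 383, 367, 292 and 300.3 FPKM. The aged mean was 0.789 of the young mean (exact two-sided permutation p = 0.333, the smallest possible, on this scale only). With the median ratio as the scale it was 0.847, and the sums overlapped between the ages, with aged replicate 2 above young replicate 2.

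**Figure D4:**
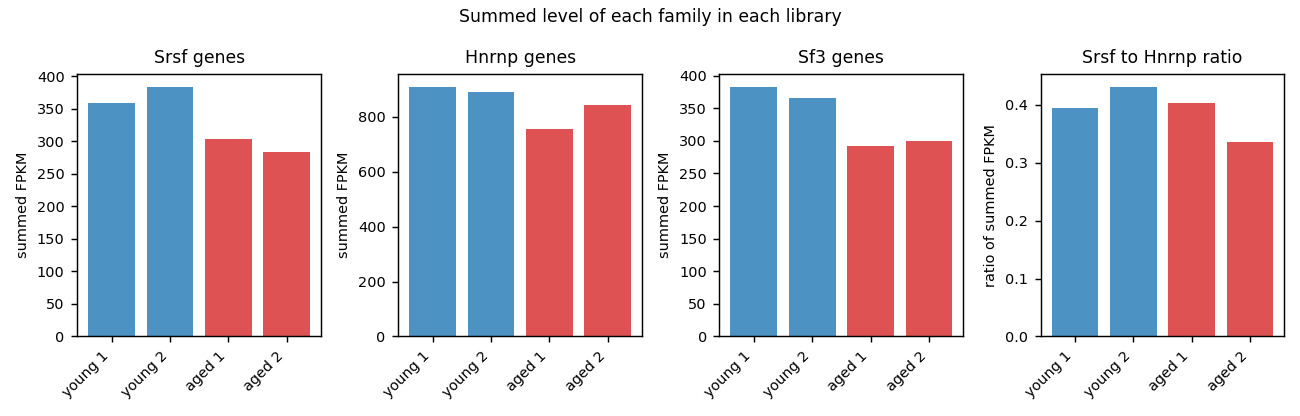
Summed FPKM of the Srsf, Hnrnp and Sf3 genes in each library and the ratio of the Srsf to the Hnrnp sum, as bars from 0, blue for young and red for aged. The sums of each family are lower in both aged libraries than in both young ones on this scale, and the ratio overlaps between the ages.

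Sf3b1, the scaffold of SF3B and the splicing factor most often mutated in human myelodysplastic syndromes, was 163, 138, 117 and 127 FPKM. It had the deepest coverage of the members, 8644 to 15964 reads, and lay lower in both aged libraries by a difference of -0.29 (SE 0.20; limma, adjusted p 0.772). Sf3b6, the small protein that contacts the branch adenosine, was 115, 76.8, 80.0 and 72.4 FPKM, with only young replicate 1 high. Sf3b2 and Sf3b3 overlapped, at 28.2, 39.2, 33.6 and 30.3 FPKM and at 16.5, 19.9, 17.1 and 19.0 FPKM, with differences of -0.06 (SE 0.25) and -0.01 (SE 0.24).

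Sf3b5, a small subunit of SF3B, had the widest difference of all members tested and, in aged replicate 2, the lowest number of reads of a tested member in any library. It was 17.1, 41.5, 9.81 and 3.41 FPKM, from 144, 328, 62 and 25 reads. Both aged libraries were lower, but the libraries of 1 age also differed by 1.23 and 1.29 on the log2 scale, and the difference was -2.01 (SE 0.56) with an unadjusted p of 0.0113 in limma and an adjusted p of 0.740. Counting alone gives a relative error of 1 over the square root of the reads, among tested members the largest at these 25 reads.

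Sf3b4 was 4.41, 4.60, 2.94 and 2.83 FPKM, from 43 to 86 reads, with a difference of -0.50 (SE 0.30; limma, adjusted p 0.761). Its pairs were tight on the scale of the read totals. With the median ratio the young pair was wider, and the difference was -0.41. Of its stretches 45.3% occur in other genes, mostly in Gm7935. Of SF3A, which joins the U2 snRNP with SF3B, Sf3a2 was 5.30, 10.2, 4.92 and 3.89 FPKM and lay lower in both aged libraries, with young replicate 1 close to aged replicate 1. Of its exon bases 16.1% are also exons of Plekhj1 on the other strand, so its values are uncertain in part. Sf3a3 was 22.2, 18.7, 10.9 and 19.3 FPKM. Sf3a1, the subunit that also contacts the U1 snRNP, was 11.9, 17.5, 14.9 and 22.2 FPKM, a difference of 0.32 (SE 0.31). The SF3A subunits thus had mean differences in both directions, and in Sf3a1 and Sf3a3 the ages overlapped.

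The genes that work with these factors were read from lists written from textbook knowledge. None of their members passed limma's test over all genes. Their medians ran from -0.24 to -0.05, beside -0.09 for all genes. With the median ratio they ran from -0.13 to 0.06, beside 0.01 for all genes. Without a single library the lowest was -0.46, for the exon junction complex and nonsense-mediated decay without aged replicate 1. The highest was then 0.02, for the catalytic stage without young replicate 2. The counts below are to be read beside 26.2% of all genes lower and 11.8% higher in both aged libraries, and beside 18.3% and 17.2% with the median ratio. The kinases that phosphorylate SR proteins had the lowest median, -0.24 over 8 tested, of which 3 lay lower and 2 higher in both aged libraries, as did 3 and 2 of 9 with the median ratio. Clk1, the most abundant, was 87.9, 99.3, 69.7 and 76.4 FPKM, lower in both aged libraries. Clk2 was 19.5, 18.8, 28.6 and 26.8 FPKM, higher in both, with a difference of 0.51 (SE 0.21) and an unadjusted p of 0.0532 in limma. Clk4 was 52.2, 38.6, 36.4 and 47.0 FPKM, with overlapping ages.

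Of 20 SR-related proteins, 7 lay lower and 1 higher in both aged libraries (3 and 1 with the median ratio), with a median of -0.07. Tra2b, an exon activator with arginine and serine rich ends, was 39.9, 31.6, 25.6 and 26.3 FPKM, while the most abundant, Rbm39 (84.8, 86.8, 81.1 and 84.7 FPKM) and Tra2a (54.9, 52.7, 45.5 and 56.7 FPKM), differed by -0.05 and -0.08. Rsrc2 was the 1 that lay higher, at 25.1 and 24.6 against 24.3 and 20.4 FPKM. Of 15 partners of SF3 at the branch site, 6 lay lower and 2 higher, with a median of -0.12. That balance turned over with the median ratio, to 1 lower and 6 higher. Sf1, the branch site protein that SF3B1 replaces, was 29.5, 41.8, 36.9 and 43.8 FPKM, and Puf60 was 20.03, 24.3, 22.6 and 26.5 FPKM. Htatsf1, a partner of SF3B1, was 3.84, 4.63, 2.40 and 2.77 FPKM, lower in both aged libraries, and Sugp1 was higher in both aged libraries, at 7.60 and 8.48 against 3.29 and 5.58 FPKM.

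Of 32 other snRNP proteins tested, 15 lay lower and 3 higher in both aged libraries (8 and 3 with the median ratio), with a median of -0.13. At an unadjusted p below 0.05 in limma, 5 were lower and 1 higher, where 4.87% of all genes were lower and 1.76% higher. With the median ratio 1 was lower and 1 higher, where 304 and 292 of all 11613 genes tested were. Snrpd1, a core Sm protein, was 9.67, 6.55, 3.19 and 1.56 FPKM, a difference of -1.46 (SE 0.38) with an unadjusted p of 0.0084 in limma and an adjusted p of 0.740. Lsm4 lay higher, at 11.2 and 8.50 against 4.34 and 5.82 FPKM, and the most abundant, Txnl4a and Snrpb, were 66.0, 71.8, 52.4 and 59.4 FPKM and 55.0, 49.1, 33.6 and 41.4 FPKM. Of 18 proteins of the catalytic stage, 5 lay lower and 3 higher (3 and 3 with the median ratio), with a median of -0.05. Bud31 was by far the most abundant at 930.0, 696, 928 and 773 FPKM, Syf2 was 63.9, 69.2, 131 and 72.7 FPKM, Prpf18 was lower at 7.48 and 5.46 against 11.4 and 13.3 FPKM, and Xab2 higher at 28.3 and 19.9 against 10.6 and 15.8 FPKM.

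Of 30 other RNA-binding regulators, 24 had a lower mean in aged cells, where 59.5% of all genes did, and 11 lay lower and 1 higher in both aged libraries, with a median of -0.10 beside -0.09 for all genes. On the median-ratio scale 12 of 29 had a lower mean and 17 a higher one, 6 lay lower and 2 higher. Ptbp2, a repressor of exons best known from neurons, was 10.1, 6.20, 2.43 and 2.01 FPKM, a difference of -1.48 (SE 0.34) with an unadjusted p of 0.00489 in limma and an adjusted p of 0.740. Pcbp2 and Ptbp3, the most abundant, were 97.8, 99.8, 87.4 and 105 FPKM and 77.2, 87.1, 71.3 and 86.1 FPKM, and Raly lay higher at 49.9 and 77.3 against 42.9 and 48.0 FPKM. Of 15 genes of the exon junction complex and nonsense-mediated decay, 3 lay lower and 1 higher (2 and 1 with the median ratio), with a median of -0.18. Magoh, a core protein of that complex, was 22.8, 16.4, 10.1 and 9.98 FPKM, and Eif4a3, its helicase, was 35.9, 31.6, 29.1 and 21.3 FPKM. Smg9 was 15.5, 21.4, 17.1 and 10.4 FPKM, and Smg5, a decay factor, was 5.44, 8.72, 12.2 and 16.5 FPKM, higher in both aged libraries, with an unadjusted p of 0.024 in limma.

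**Figure D5:**
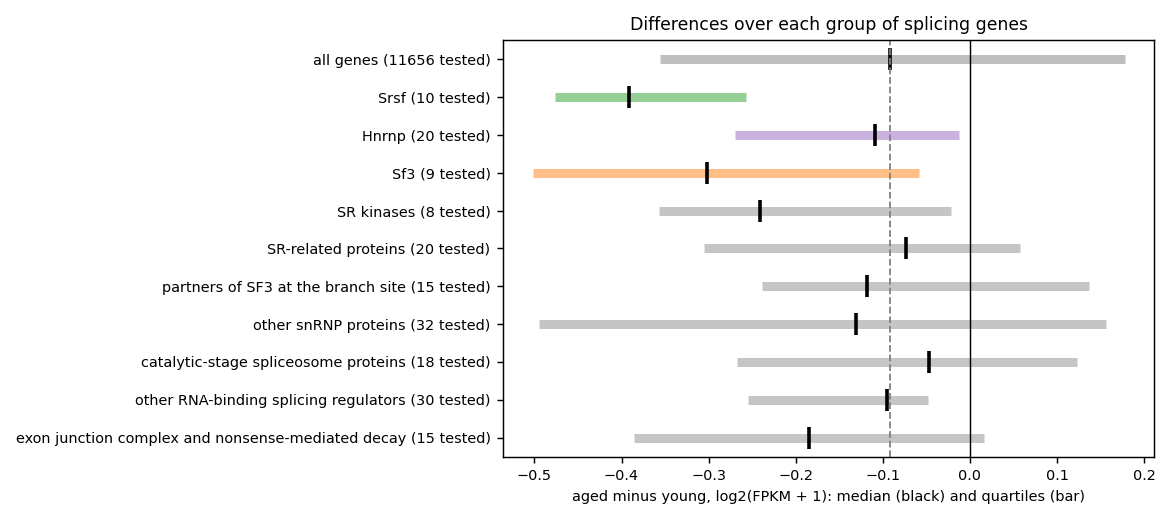
Median (black mark) and quartiles (bar) of the difference of aged less young in log2(FPKM + 1), for all genes tested, the 3 families and the 7 lists of related splicing genes. The dashed line is the median of all genes, -0.09; the Srsf genes have a median of -0.39, the Sf3 genes -0.30 and the Hnrnp genes -0.11.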

How the data were processed

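Per the labels' protocols, oligo-dT primed the reverse transcription of the RNA, and multiple displacement amplified the product, which can copy transcripts unevenly. The authors deposited 1 table of FPKM values, and bcl2fastq, BWA 0.7.12, DESeq2 and mm10 are named in the submitters' processing notes without a role. The sources used here name neither counting program nor annotation. The sample number in the labels matched each column to a sample, with 0 left unmatched.

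The read total behind a deposited FPKM value changes from gene to gene, through 12 totals in turn by Entrez ID. Each value was put back on its own library's total by the ratio of both totals. With this rule, a length of at most 30000 bases that makes the reads of all 4 libraries whole within 0.02 reads was found for 1000 of 1000 genes drawn at random. With the column's own total it was found for 60. For a member, the smallest such length gave the reads quoted, so they are lower limits.

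The test was limma 3.58.1 in R 4.3.3 on log2(FPKM + 1) with an intensity trend, two-sided, over 11656 genes with a mean of at least 1 FPKM, with Benjamini-Hochberg adjustment and a threshold of 0.05. Python 3.11.15 was used elsewhere. The members and lists were chosen with earlier results of these data known. Named with all values were the 4 most abundant members of each family and, in each direction, the 6 with the lowest p among those that do not overlap. The other members, given so that all are accounted for, were chosen by no value. Of each list the 2 most abundant genes and, in each direction, the non-overlapping gene with the lowest p were named. The list entries Sf3b14 and Hnrpll are older names of the members Sf3b6 and Hnrnpll and had no row. Sharing was counted over the 50-base stretches of GENCODE M21 transcripts. Nothing says that the pools were split by animal beyond their number, so p-values measure the spread between these pools, which may be technical. Counting errors cover counting only. Alternatives were other pseudocounts, filters and scalings, a replicate block, no trend, and leaving out each library.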

Additional observations from a re-analysis of the deposited data

How the results depend on the processing

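Over 13 alternatives, limma called 0 of the members in every one, and over all genes 1 gene was called higher with the replicate number as a block, 0 to 15 higher and 0 to 4 lower without a single library, the highest counts both without aged replicate 1, and 0 in the others. With median-ratio scaling 1 member was lower at an unadjusted p below 0.05, 9 lay lower and 2 higher in both aged libraries, and the members' median was -0.14. Without the intensity trend 2 were lower at an unadjusted p below 0.05. Leaving out a library gave 1 to 4 such members, 1 of them without either young library and 2 without aged replicate 2, and 23 to 26 members below and 2 to 7 above, where a lone library overlaps less easily. All genes then lay below in 34.6% to 47.3% and above in 17.8% to 32.5%, and the gap was narrower than with all libraries in some: without aged replicate 1, 59.0% of the members against 45.7% lay below, and without young replicate 1, 61.5% against 47.3%. The members' median was then -0.25 to -0.22, with -0.46 to -0.28 for Srsf, -0.23 to -0.15 for Hnrnp and -0.41 to -0.24 for Sf3. In the values as deposited, whose changing totals lower the aged values of these genes by a median of 0.24, the medians were -0.50 for all members, -0.64 for Srsf, -0.46 for Hnrnp and -0.53 for Sf3. The aged over young sums of Srsf, Hnrnp and Sf3 were 0.852, 0.955 and 0.847 with the median ratio, 0.646, 0.741 and 0.666 as deposited, and 0.763 to 0.818, 0.838 to 0.937 and 0.772 to 0.808 without a single library, and the Srsf to Hnrnp ratio changed by a factor of 0.814 to 0.976.

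Of 208 values of the 16 members named by rule, 196 kept their direction. Hnrnpa0 was -0.084 as deposited and -0.14 to 0.24 without a library, Hnrnpab 0.049 with the median ratio and -0.24 to 0.11, Sf3b2 0.053 with the median ratio and -0.29 to 0.17, and Sf3b3 0.10 with the median ratio, 0.045 with quantile scaling and -0.14 to 0.12. Same-numbered libraries did not deviate together (correlation -0.00038 over 11656 genes). This correlation comes from few pools, so it cannot decide whether same-numbered pools were prepared together. With the replicate block the members at an unadjusted p below 0.05 stayed at 4.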
